A study of Mus musculus with 2 samples.

Results

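Mitochondrial fatty acid oxidation was followed through 10 genes that encode the carnitine shuttle and the enzymes of the beta-oxidation spiral: Cpt1a, Slc25a20, Cpt2, Acadvl, Acadl, Acadm, Acads, Hadha, Hadhb and Acaa2. They were taken by symbol from a table of 13326 genes, and all 10 were found. The samples were livers of Adipoq-/- mice, which lack the gene for the adipocyte hormone adiponectin, and livers of wild-type mice. Both groups were C57BL/6J males, 12 weeks old and fasted overnight, and nothing in the labels sets them apart other than the Adipoq genotype. RNA from 9 to 10 mice of a genotype was pooled into 1 sequencing library, so the study holds 1 Adipoq-/- library and 1 wild-type library. No difference between them has a replicate check, no test across animals was possible, and the spread between animals is not known.

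In a fasted liver, fatty acids released from adipose tissue are burned in mitochondria for energy and for ketone body synthesis. A long-chain fatty acid is activated to its acyl-CoA, passed to carnitine by CPT1A on the outer membrane, carried across the inner membrane by the exchanger SLC25A20, and returned to CoA by CPT2. Acyl-CoA dehydrogenases for very long, long, medium and short chains then start each turn of the spiral. The trifunctional protein, built from HADHA and HADHB, completes the turn for long chains, and the thiolase ACAA2 releases acetyl-CoA from medium and short chains. Many of these genes are known targets of PPAR alpha, the nuclear receptor that answers to fatty acids in fasting.

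Expression is given in FPKM, which scales fragments by the length of the transcript and the size of the library, so levels of different genes can be compared within a library. Summed FPKM came to 891964 in the Adipoq-/- library and 798170 in the wild-type library, and the read depth is unknown. The ratio of a gene was taken as the log2 of Adipoq-/- over wild type after 1 FPKM was added to each value, which understates the difference of low genes. Its median over the 11985 genes with at least 1 FPKM in a library was -0.15, and ratios are given relative to that median unless called as deposited. The targeted gene was not analysed here and gave no check of the labels.

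All 10 genes had lower FPKM in the Adipoq-/- library than in the wild-type library, as did 66.9% of all genes measured. All 10 also lay below the all-gene median, as did 50.0% of the genes measured, and 9 of 10 did so with a pseudocount of 0.1 FPKM (without Acads) or against genes of like transcript length (without Hadhb). The differences were small. The median ratio of the 10 genes was -0.15, and the values ran from -0.40 for Acadm to -0.02 for Acads. Only Acadm was at least 20% lower relative to all genes (a fold of the same size as 25% higher), which is 1 of 10 members, against 11.7% of the genes measured, so the share past this fold was near that of genes in general. None of the 10 was at least 1.5-fold lower, which 2.61% of all genes were, and none was higher. Without centring on all genes, 4 of the 10 were at least 20% lower, compared with 26.2% of all genes.

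**Figure D1:**
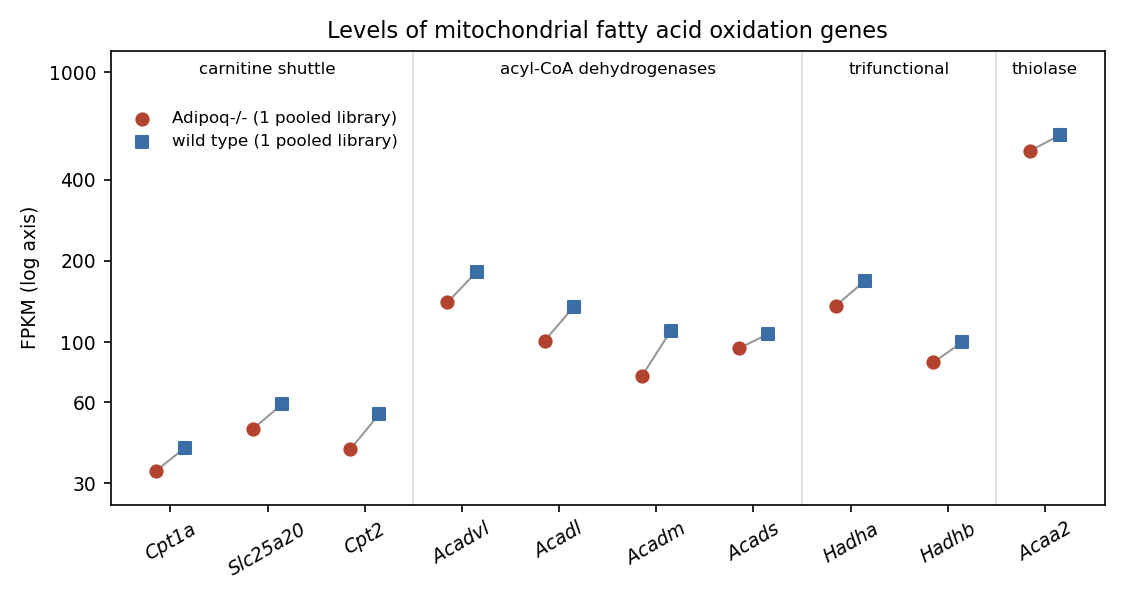
FPKM (vertical log axis) of the 10 genes in the Adipoq-/- library (circles) and the wild-type library (squares), in the order of the pathway, with 1 pooled library per genotype and no error bars. Each circle lies below its square, from 33.4 and 40.7 FPKM for Cpt1a to 513 and 583 FPKM for Acaa2.

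The carnitine shuttle held the least abundant members. Cpt1a, the step that sets the rate of fatty acid entry and is blocked by malonyl-CoA, stood at 33.4 FPKM in the Adipoq-/- library and 40.7 in the wild-type library, a ratio of -0.13. It was the lowest of the 10 genes in both libraries, yet ranked 2337 in the Adipoq-/- library and 2072 in wild type among the 13326 genes. Slc25a20, the carnitine-acylcarnitine exchanger of the inner membrane, stood at 47.8 FPKM in the Adipoq-/- library and 59.0 in wild type (-0.15). For Cpt2, the inner-membrane transferase that regenerates acyl-CoA in the matrix, the values were 40.1 FPKM in the Adipoq-/- library and 54.3 in wild type, and its ratio of -0.28 was the second lowest of the 10. The excess of Cpt2 over Cpt1a was thus smaller in the Adipoq-/- library, at 1.20-fold, than in wild type, at 1.33-fold. Together the 3 shuttle genes summed to 121 FPKM in the Adipoq-/- library and 154 in the wild-type library, 78.8% of the wild-type sum.

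The acyl-CoA dehydrogenases differed most among themselves. Acadm, the medium-chain enzyme, stood at 74.8 FPKM in the Adipoq-/- library and 110.3 in wild type. Its ratio of -0.40 was the lowest of the members, and 7.36% of all genes had a lower one. Acadl, the long-chain enzyme, stood at 101.2 FPKM in the Adipoq-/- library and 135.2 in wild type (-0.26), and Acadvl, the very-long-chain enzyme of the inner membrane, at 140.4 and 182.1 (-0.22).

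Acads, the short-chain enzyme, stood apart from these, at 94.9 FPKM in the Adipoq-/- library and 107.3 in wild type. Its ratio of -0.02 was close to that of the middle gene of the whole table, since 46.7% of all genes had a lower one. The ratios of the other dehydrogenases lay between 0.20 and 0.38 below it on the log2 scale. The place of Acadm in the order of abundance differed, with Acadm at the seventh position of the 10 genes in the Adipoq-/- library and at the fifth in wild type. The 4 dehydrogenases summed to 411 FPKM in the Adipoq-/- library and 535 in wild type, 76.9% of the wild-type sum. Whether the 4 ratios differ by more than the spread between animals was not tested.

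The promoter windows of the dehydrogenases at both ends of this range, Acadm and Acads, and of Acadvl are shown so that their short motifs can be compared. The sequences are from RefSeq on GRCm38.p6, which is not the mm9 build named in the submitters' processing notes, and they were matched by gene symbol. Each is the 250 bases before the annotated start, read 5′ to 3′ on the strand of the gene, with capitals marking the nuclear receptor motif AGGTCA or the GC box GGGCGG on either strand. The Acadm window is chr3:153944644-153944893 (minus strand), the Acads window chr5:115119347-115119596 (minus strand) and the Acadvl window chr11:70015429-70015678 (minus strand).
Acadm: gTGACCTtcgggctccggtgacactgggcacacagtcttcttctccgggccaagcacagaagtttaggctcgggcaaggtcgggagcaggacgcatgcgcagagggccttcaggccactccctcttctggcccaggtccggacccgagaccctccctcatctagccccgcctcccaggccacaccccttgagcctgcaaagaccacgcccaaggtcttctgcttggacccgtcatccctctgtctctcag
Acads: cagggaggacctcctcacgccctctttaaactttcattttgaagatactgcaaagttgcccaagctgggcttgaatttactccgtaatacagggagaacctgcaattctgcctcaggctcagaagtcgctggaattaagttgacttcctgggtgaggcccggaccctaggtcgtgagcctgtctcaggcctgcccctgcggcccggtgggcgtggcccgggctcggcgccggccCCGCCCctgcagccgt
Acadvl: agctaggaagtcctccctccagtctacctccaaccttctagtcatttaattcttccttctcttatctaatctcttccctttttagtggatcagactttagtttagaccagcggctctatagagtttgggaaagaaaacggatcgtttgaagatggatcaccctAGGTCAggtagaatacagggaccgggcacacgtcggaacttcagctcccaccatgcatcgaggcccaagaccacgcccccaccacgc

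Acadm carried AGGTCA on the strand opposite to the gene, its far end 249 bases before the start, and Acadvl carried it on the strand of the gene, 87 bases before the start. Acads had no AGGTCA in its window and 1 GC box on the opposite strand, 16 bases before the start. Acadl, the dehydrogenase whose window is not shown, had no AGGTCA and 4 GC boxes, with a ratio of -0.26. Whether these motifs go with the ratios was not tested. Over the 9 members with a window, AGGTCA occurred in 3 (Acadm, Acadvl and Cpt1a), and it occurred in 14.0% of 32851 windows of the same length. The GC box occurred in 7 of 9, against 32.7% of all windows, and was missing in Acadm and Acadvl. The 1 GC box of Hadha is the same site as a GC box of Hadhb, whose window overlaps its own, so with the pair counted once it was 6 of 8. Of the 9 windows, 8 had a GC content above the median of all windows (52.4%), and the part of base composition in these counts was not tested. The TATA box TATAAA was in none of the 9 windows and in 12.4% of all windows, and CCAAT was in that of Cpt1a alone and in 33.8% of all. A pair of AGGTCA with 1 base between them, the DR1 element that PPAR alpha binds, was in none of the 9 and in 0.0335% of all windows, and the NRF1 motif, GCGCA and GCGC with 1 base of any kind between them, was in none and in 3.74% of all. Such matches are descriptions of these letters and not binding sites.

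Hadha and Hadhb, the subunits of the trifunctional protein, had similar ratios. Hadha, which carries the enoyl-CoA hydratase and the long-chain hydroxyacyl-CoA dehydrogenase activities, stood at 136.7 FPKM in the Adipoq-/- library and 169.2 in wild type (-0.15). Hadhb, the thiolase subunit, stood at 84.2 FPKM in the Adipoq-/- library and 100.1 in wild type (-0.10). Hadha was 1.62-fold as abundant as Hadhb in the Adipoq-/- library and 1.69-fold in wild type, and their log2 ratios were 0.06 apart. The proteins join in equal numbers of each subunit, while the FPKM of the transcripts were unequal in both libraries.

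These genes lie head to head, with annotated starts 273 bases apart on opposite strands of chromosome 5 (RefSeq, GRCm38.p6). The 250 bases before the start of Hadhb share 228 bases with the 250 before the start of Hadha, so a single window is shown for the pair, at chr5:30155003-30155252 on the plus strand, which is that of Hadhb. Capitals mark the GC box GGGCGG.
Hadhb: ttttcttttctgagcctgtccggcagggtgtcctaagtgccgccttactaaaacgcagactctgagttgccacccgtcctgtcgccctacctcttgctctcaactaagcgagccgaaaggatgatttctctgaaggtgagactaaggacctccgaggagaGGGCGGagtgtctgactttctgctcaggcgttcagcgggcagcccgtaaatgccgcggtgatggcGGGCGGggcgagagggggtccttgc

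The GC boxes of this window began 90 and 25 bases before the Hadhb start, and neither AGGTCA nor TATAAA was present on either strand.

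Acaa2, the mitochondrial thiolase, was the most abundant member, at 512.5 FPKM in the Adipoq-/- library and 583.3 in wild type. It ranked 196 in the Adipoq-/- library and 163 in wild type among all genes. It was 3.65-fold as abundant as Acadvl, the next of the 10, in the Adipoq-/- library and 3.20-fold in wild type. Its ratio of -0.03 was near the all-gene median. Acaa2 made up 40.5% of the summed FPKM of the 10 genes in the Adipoq-/- library and 37.8% in wild type. The 10 genes summed to 1266 FPKM in the Adipoq-/- library and 1541 in wild type (82.1%), and without Acaa2 the other 9 summed to 754 FPKM in the Adipoq-/- library and 958 in wild type (78.6%). The sum of the 10 was 0.142% of all FPKM in the Adipoq-/- library and 0.193% in wild type.

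**Figure D2:**
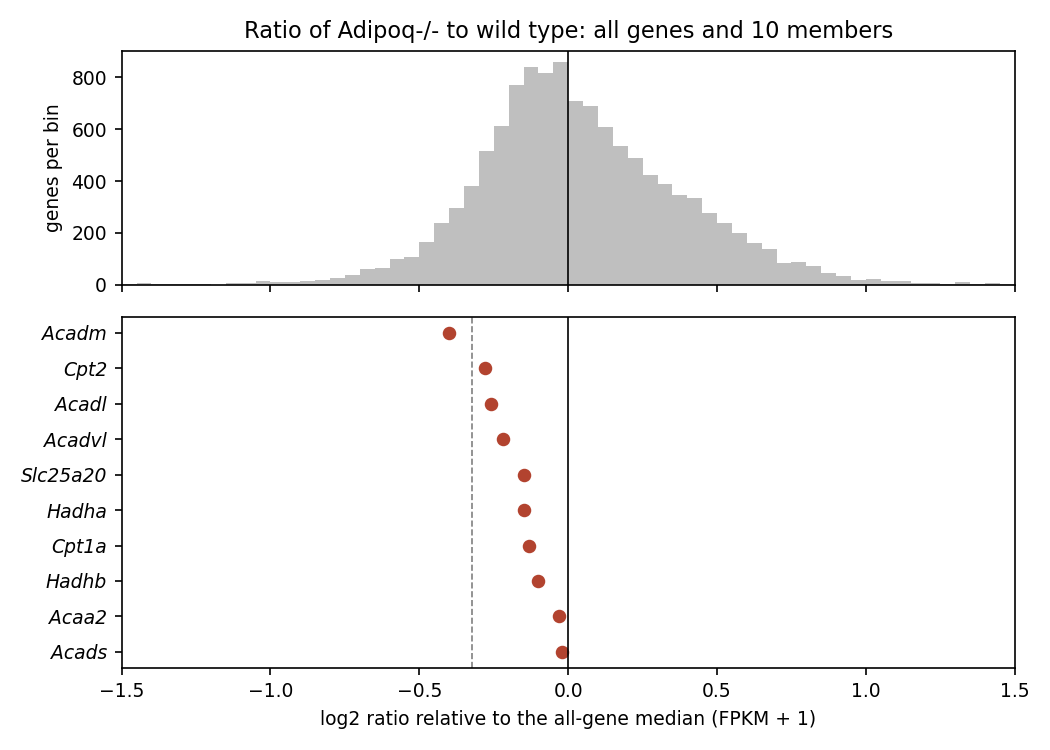
Upper panel: histogram of the log2 ratio of Adipoq-/- over wild type relative to the all-gene median for 11985 genes, of which 35 lie outside the plotted range. Lower panel: the same ratio for the 10 genes, with a dashed line at 20% lower. All 10 points lie left of 0 (9 of 10 with a pseudocount of 0.1 FPKM or against genes of like length) and only Acadm, at -0.40, lies beyond the dashed line.

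The order of abundance was nearly the same in both libraries. From high to low it began with Acaa2, Acadvl, Hadha and Acadl and ended with Slc25a20, Cpt2 and Cpt1a in each, and only Acads, Hadhb and Acadm traded the fifth to the seventh position. Acads exceeded Hadhb 1.13-fold, and Hadhb exceeded Acadm 1.13-fold, in the Adipoq-/- library, and Acadm exceeded Acads 1.03-fold, and Acads exceeded Hadhb 1.07-fold, in wild type. Neighbours this close cannot be ordered without replicates. The gap that followed, between this group and Slc25a20, was 1.57-fold in the Adipoq-/- library and 1.70-fold in wild type.

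Abundant genes as a class had higher ratios than scarce ones in this pair of libraries. Of the 2031 genes with a mean FPKM between those of Cpt1a and Acaa2, 31.2% lay below the all-gene median, whereas all 10 members did, and 6.94% were at least 20% lower. In the 599 genes of the abundance class that holds Acadvl, Acadl, Acadm, Acads, Hadha and Hadhb the median ratio was 0.24. Set against genes of like abundance, the 10 members had a median of -0.35 and 7 of them were at least 20% lower, compared with 12.5% of all genes on that scale. Acadm was then at -0.64, Acadl at -0.50 and Acadvl at -0.46. Such values were not particular to the 10 genes. On the same scale the median was -0.52 for peroxisomal oxidation and -0.45 for ketone body synthesis and export. It was -0.36 for the acyl-CoA dehydrogenases of amino acid breakdown. The other pathway lists described below had medians between -0.34 (acyl-CoA activation) and -0.07 (general mitochondrial proteins).

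**Figure D3:**
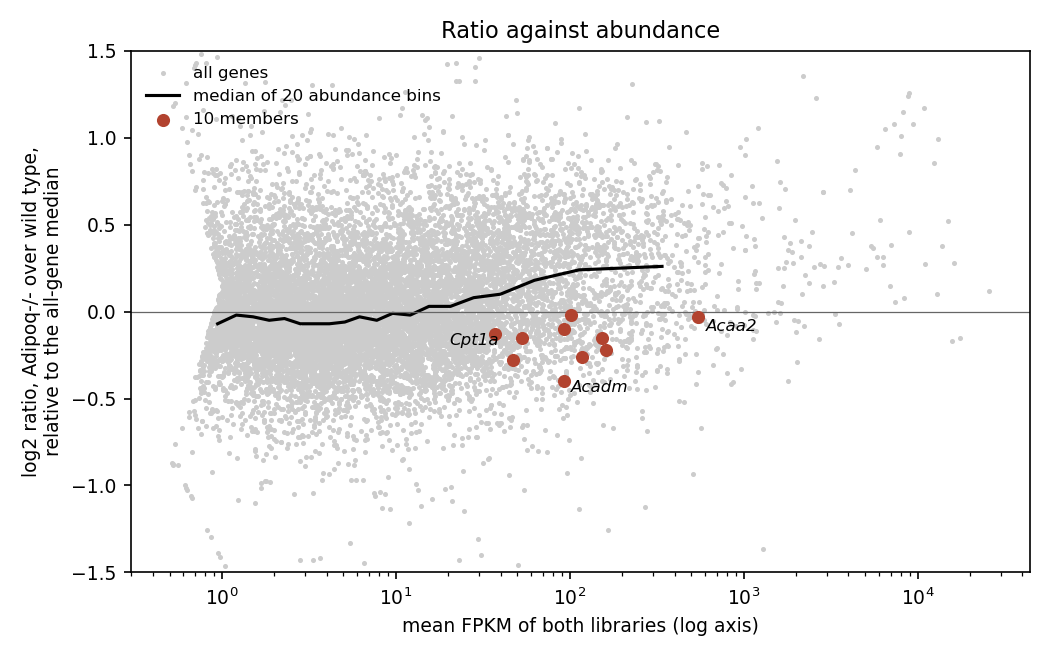
Log2 ratio of Adipoq-/- over wild type relative to the all-gene median (vertical axis) against the mean FPKM of both libraries (horizontal log axis), with all genes in grey, the medians of 20 abundance classes as a line and the 10 members as filled circles. The line climbs from -0.07 in the lowest class to 0.26 in the highest, and the 10 members lie below it.

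Transcript length also moved with the ratio. Over 11571 genes with an annotated length, the ratio had a Spearman rho of -0.42 with the length of the longest transcript, a description across genes of 1 pair of libraries. Genes in the lowest 10% by length had a median ratio of 0.40 and those in the highest 10% one of -0.12. The longest annotated transcripts of the members ran from 1516 bases (Acaa2) to 4388 (Hadhb), with a median of 2270, against 2729 over all these genes. Relative to genes of like length, the median of the 10 was -0.09 and 9 of 10 lay below 0, compared with 50.0% of genes, while 1 of 10 was at least 20% lower, compared with 11.4%. Acadm (-0.39), Acadl (-0.29), Cpt2 (-0.27) and Acadvl (-0.21) kept nearly their values, whereas Cpt1a (-0.02) and Hadhb (0.01), which have the longest transcripts of the 10, came to lie at the median. The part of length or RNA quality in these ratios was not tested.

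The 16 further genes of auxiliary enzymes of mitochondrial beta-oxidation, related acyl-CoA enzymes and electron transfer were less uniform. Their median ratio was -0.19, with 10 of 16 genes under that of all genes. At least 20% lower were 3 of them, against 11.7% of all genes, and at least 25% higher were 2, against 19.8%. Hadh, the hydroxyacyl-CoA dehydrogenase for medium and short chains, stood at 110 FPKM in the Adipoq-/- library and 162 in wild type, and its ratio of -0.40 equalled that of Acadm. Echs1, the short-chain enoyl-CoA hydratase that acts just before it, was higher, with 453 FPKM in the Adipoq-/- library and 369 in wild type (0.45). Electron transfer from the dehydrogenases, whose genes were named after their values were seen, was mixed too. Etfa stood at 369 FPKM in the Adipoq-/- library and 408 in wild type (0.01), Etfb at 411 and 364 (0.33), and Etfdh, which passes the electrons to ubiquinone, at 92.2 and 120 (-0.22). Among the related acyl-CoA dehydrogenases of amino acid breakdown, Ivd, for leucine, was at 115 FPKM in the Adipoq-/- library and 146 in wild type (-0.19) and Gcdh, for lysine and tryptophan, at 299 and 367 (-0.15), and none of the 4 was 20% lower. Acadsb is counted both among these 4 and among the 16, and Acat1 both among the 16 and in ketone body synthesis.

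**Figure D4:**
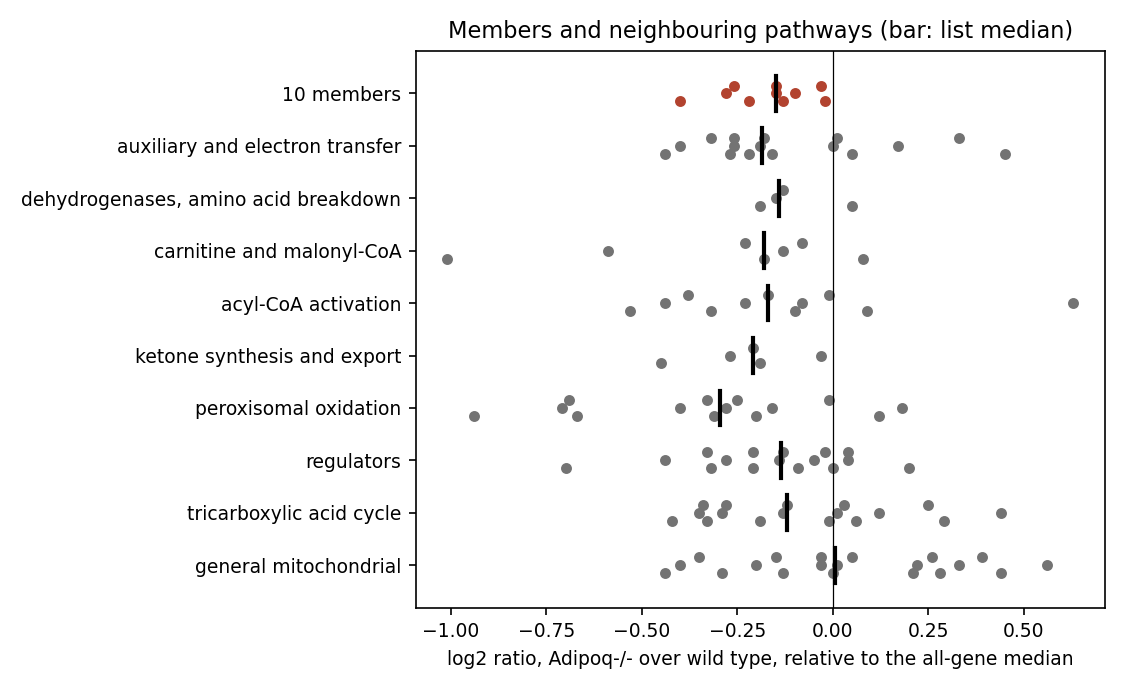
Log2 ratio of Adipoq-/- over wild type relative to the all-gene median (horizontal axis) for each measured gene of 10 lists, 1 point per gene, with a bar at the median of the list. The 10 members lie between -0.40 and -0.02, a narrower range than peroxisomal oxidation, whose genes run from -0.94 to 0.18. The dehydrogenases of amino acid breakdown have a narrower range, from -0.19 to 0.05, and ketone synthesis and export a similar one, from -0.45 to -0.03.

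Around the shuttle, genes for carnitine supply and for malonyl-CoA had a median of -0.18, with 6 of 7 genes under the all-gene median. Of the 7, 2 were at least 20% lower, against 11.7% of all genes. Crat, the carnitine acetyltransferase that buffers acetyl-CoA, had the lowest ratio, with 12.4 FPKM in the Adipoq-/- library and 29.0 in wild type (-1.01). Acacb, the acetyl-CoA carboxylase that makes the malonyl-CoA acting on CPT1, stood at 6.86 FPKM in the Adipoq-/- library and 12.1 in wild type (-0.59). Aldh9a1, the most abundant of this list and an enzyme of carnitine synthesis, stood at 61.6 FPKM in the Adipoq-/- library and 75.3 in wild type (-0.13). Tmlhe, Cpt1b and Cpt1c were not analysed here. For activation of fatty acids to acyl-CoA the median was -0.17, with 9 of 11 genes under that of all genes. The 11 had 3 at least 20% lower (11.7% of all genes) and 1 at least 25% higher (19.8% of all genes). Acsl5 stood at 106 FPKM in the Adipoq-/- library and 159 in wild type (-0.44), Acsl3 at 8.89 and 14.9 (-0.53), and Slc27a5, a bile acid and very-long-chain acyl-CoA synthetase, at 460 and 541 (-0.08).

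Peroxisomal oxidation, which shortens very long chains before they reach mitochondria, had a lower median than the mitochondrial genes, at -0.29 over 14 genes. Of these 14, 6 were at least 20% lower, against 11.7% of all genes. The lowest values in the list were those of the thiolase Acaa1b, at 328 FPKM in the Adipoq-/- library and 697 in wild type (-0.94), and of the bifunctional enzyme Ehhadh, at 59.8 and 109 (-0.71), both beyond Acadm. Reads are hard to assign between Acaa1b and its close paralog Acaa1a. Ketone body synthesis and export, which uses the acetyl-CoA of the spiral, had a median of -0.21, with 5 of 5 genes under the all-gene median. Of the 5, 1 was at least 20% lower, against 11.7% of all genes. Slc16a1, the transporter that carries ketone bodies out of the cell, stood at 6.53 FPKM in the Adipoq-/- library and 10.4 in wild type (-0.45). With 1 library per genotype, the differences between these lists were not tested.

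Of 18 listed regulators of the pathway, 17 were found and 16 of these reached 1 FPKM in a library. The 16 had a median of -0.14, with 3 at least 20% lower (11.7% of all genes were) and 13 under the all-gene median. Gabpa, a transcription factor of nuclear genes for mitochondria, had the lowest ratio, with 8.40 FPKM in the Adipoq-/- library and 15.9 in wild type (-0.70). The corepressor Ncor1 stood at 13.7 FPKM in the Adipoq-/- library and 19.3 in wild type (-0.32), and Sirt3, the mitochondrial deacetylase, at 79.5 and 89.5 (-0.02). Ppara, chosen after its value was seen, stood at 31.7 FPKM in the Adipoq-/- library and 36.5 in wild type (-0.05).

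Other mitochondrial genes gave a scale for the organelle. The tricarboxylic acid cycle had a median of -0.12, with 10 of 17 genes under the all-gene median. Of the 17 genes of the cycle, 4 were at least 20% lower, against 11.7% of all genes. Within it Dld stood at 46.9 FPKM in the Adipoq-/- library and 70.1 in wild type (-0.42), Sdha at 361 and 488 (-0.28), and Sdhd at 309 and 252 (0.44). General mitochondrial proteins, such as pores, import subunits and fusion factors, had a median of 0.00, with 10 of 20 genes below the all-gene median. In that list the import subunit Timm23 stood at 98.9 FPKM in the Adipoq-/- library and 74.2 in wild type (0.56), and the fusion factor Opa1 at 11.5 and 17.9 (-0.44).

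The genes outside all these lists that lay closest to the middle of the 10 members, by distance in log2 mean FPKM and log2 ratio among 5520 genes, were Acat2, Nadk and Gcgr. Acat2, the cytosolic acetyl-CoA acetyltransferase, stood at 85.8 FPKM in the Adipoq-/- library and 107 in wild type (-0.16). The NAD kinase gene Nadk stood at 87.5 FPKM in the Adipoq-/- library and 107 in wild type (-0.13), and the glucagon receptor gene Gcgr at 83.9 and 107 (-0.20). With 2 libraries, such closeness holds for level and ratio alone.

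Markers of liver cells were checked in the same tables. The 9 hepatocyte markers, Alb among them, summed to 32720 FPKM in the Adipoq-/- library and 36542 in wild type, and their median ratio was -0.06. Most of that difference in sums was Alb, at 14031 FPKM in the Adipoq-/- library and 17522 in wild type. The other 8 hepatocyte markers summed to 18689 FPKM in the Adipoq-/- library and 19020 in wild type. Kupffer cell markers (9 of 9 in the files) summed to 276 FPKM in the Adipoq-/- library and 230 in wild type. Lyz2 made up most of that difference, at 116 FPKM in the Adipoq-/- library and 72.5 in wild type, and the other 8 summed to 160 and 157. As deposited, 4 of the 9 were lower, and the median ratio of the 9 was 0.27, or 0.10 against genes of like length. Sinusoidal endothelial markers (7 of 7) summed to 70.9 FPKM in the Adipoq-/- library and 66.9 in wild type, and stellate cell markers (6 of 7) to 72.3 and 71.9. The median ratio was 0.09 for the endothelial list and 0.19 for the stellate list, or 0.20 and 0.31 against genes of like length. Cholangiocyte markers (3 of 5) summed to 23.6 FPKM in the Adipoq-/- library and 16.2 in wild type, of which Spp1 made up 21.0 and 13.4 and the other 2 together 2.60 and 2.73. Of the adipocyte markers, 3 of 6 were in the files, with sums of 13.1 FPKM in the Adipoq-/- library and 23.9 in wild type. Cfd stood at 2.01 FPKM in the Adipoq-/- library and 13.3 in wild type, Fabp4 at 11.0 and 9.61, and Cidea at 0.146 and 1.03, so that without Cfd the sums were 11.1 and 10.6. Erythroid markers (5 of 5) summed to 13493 FPKM in the Adipoq-/- library and 11823 in wild type. Their median ratio was 0.34. Against genes of like length the median was 0.02 over Hba-a1, Hba-a2 and Alas2 alone. Hbb-b1 and Hbb-b2, at 5953 and 2864 FPKM in the Adipoq-/- library, had no annotated length and were left out of it. Of 6 muscle markers Acta1 alone was in the files, at 1.66 FPKM in the Adipoq-/- library and 1.77 in wild type. No measured marker was at 0 in either library. In bulk tissue, fewer cells of a type and less RNA per cell cannot be told apart, and the part of cell makeup in the ratios of the 10 genes was not tested.

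**Figure D5:**
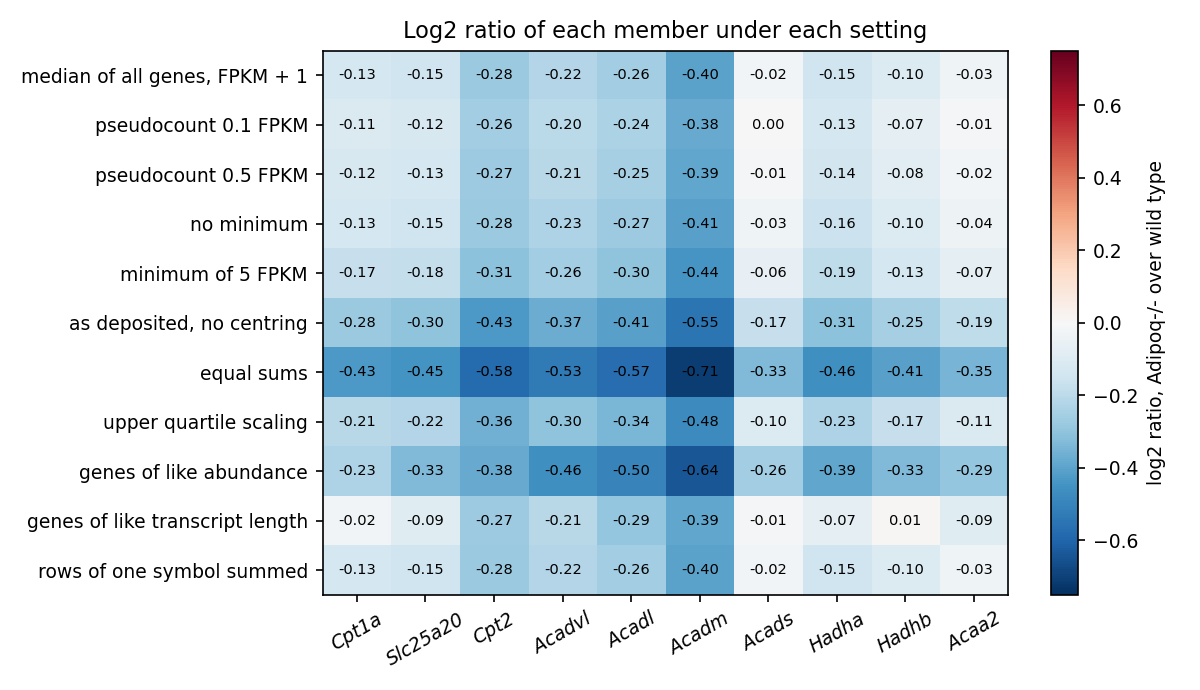
Log2 ratio of Adipoq-/- over wild type for each of the 10 genes (columns) under the setting used in the text (top row) and 10 alternatives (other rows), with blue for lower and red for higher in the Adipoq-/- library. In the rows as deposited, with equal sums and with upper quartile scaling, 0 is not the all-gene median. Acadm is the lowest in each row, from -0.38 to -0.71, and Acads and Hadhb reach 0.00 and 0.01 in 1 row each. Rows that change only the minimum or the scaling of whole libraries move all 10 genes by nearly the same amount. The order of the genes in those rows is therefore no separate check.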

How the data were processed

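Per the labels' protocols, mRNA libraries were made from total RNA of fasted livers, pooled over 9 to 10 mice per genotype. The authors deposited FPKM, 1 value per gene symbol and library, made with TopHat and Cuffdiff on mm9 and NCBIM37, per the submitters' processing notes. Versions, annotation, program roles and filters were not stated in any source used here. Of 13352 rows, 26 repeated a symbol, of which the higher one by mean was used.

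Ratios were computed in Python 3.11.15 (pandas 2.3.3, numpy 2.4.6) as log2((Adipoq-/- FPKM + 1) / (wild-type FPKM + 1)), minus the median over genes with at least 1 FPKM in a library. The scripts were tested on simulated data. No test across samples was possible. Genes at least 20% lower or 25% higher (folds of equal size) were counted, with 1.5-fold beside them. In all, 10 alternative settings were tried.

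Members and lists were chosen with earlier results of these data known. Named genes are the 10 members, the most abundant and the 2 farthest genes of each pathway list at 5 FPKM or more, and the 3 nearest genes; some genes that this rule takes are not reported here. Lengths came from GENCODE M21 and promoter windows from RefSeq GRCm38.p6, matched by symbol, with 9 of 10 members found and Acaa2 not among them.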

Additional observations from a re-analysis of the deposited data

How the results depend on the processing

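With 1 library per genotype there were no replicates to leave out. No paired analysis was possible because each genotype has 1 library. The median ratio of the 10 genes stayed below 0 under all 10 alternatives, between -0.46 and -0.09, and 9 or 10 members lay below 0 under each. As deposited, with equal sums and with upper quartile scaling, however, 0 was not the all-gene median. That median was then -0.15, -0.28 and -0.09, and 66.9%, 78.0% and 60.6% of all genes lay below 0. The value of -0.46 came with equal sums. The number of members at least 20% lower followed the scaling. It was 1 in the setting of the text, 4 with FPKM as deposited, 10 after scaling to equal sums, 3 after upper quartile scaling and 7 against genes of like abundance, while the all-gene share past that fold was 11.7%, 26.2%, 43.6%, 19.6% and 12.5%. It stayed at 1 under the other 6. Acads came to 0.00 with a pseudocount of 0.1 FPKM and Hadhb to 0.01 against genes of like length. The median of general mitochondrial proteins ran from -0.30 to 0.07. Read depth is unknown, so no counting error can be attached to these values.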
